A study of Saccharomyces cerevisiae with 8 samples.

Results

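The little-known genes of baker's yeast described here are ECM13, ANS1, YNR014W, YHR022C, YDL085C-A and YBR071W, 6 in all. They were picked by their large changes in array signal over freezing time on these same 8 arrays, with no numeric threshold stated, so their changes are given as a description and were not tested. These are 6 of the 5188 genes measured, and all 6 passed the filter on dim probe sets. Each was read by 1 probe set assigned to that gene alone. The cells were commercial compressed baker's yeast (Saccharomyces cerevisiae, strain not named in the labels) in a fermentation medium without sucrose and maltose. Suspensions of all groups were thawed at 30 °C for 10 min after 0, 3, 7 or 14 days at -20 °C, and poly(A) RNA was hybridised to Affymetrix arrays. Each time had 2 arrays, described by the submitters as duplicates from independent samples. The number of arrays limits the precision.

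A large share of the open reading frames of yeast became known from the genome sequence alone, and those with no assigned function keep a systematic name that gives the chromosome arm, the position on it and the strand. Of the genes here, 4 carry such names. ECM13 was named in a screen for mutants with altered cell surface traits. ANS1 is annotated as a putative cell surface protein held by a glycosylphosphatidylinositol (GPI) anchor. Gene annotation describes transcription of ANS1 and YNR014W as dependent on the zinc finger factor Azf1, and that of YNR014W as heat-inducible. YDL085C-A encodes a small protein of the conserved SERF family, known in animals for promoting amyloid formation. No role is given here for YHR022C and YBR071W.

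The arrays themselves differed in ways that bear on these genes. Ribosomal RNA probe sets stood on average 6.76 to 11.3 times above the array median on the 4 arrays of 0 and 3 days and 15.7 to 22.7 times above it on the 4 arrays of 7 and 14 days. Control probe sets for 4 mouse genes, which yeast RNA should not bind, show how bright an absent transcript can be. The brightest of them read between 6.87 and 65.9 on the deposited scale, depending on the array. Signals below are quantile normalised intensities unless called deposited, with values under 2.52 raised to that floor. A normalised signal compares one gene between arrays and not one gene with another.

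ECM13, ANS1 and YNR014W were high on all arrays of 7 and 14 days and low on all arrays of 0 and 3 days. ECM13 read 471 and 84.8 at 0 days, 168 and 237 at 3 days, 1628 and 2243 at 7 days, and 1990 and 4436 at 14 days (replicates 1 and 2 of each time). The duplicates of 0 days lay 2.47 apart on the log2 scale, yet each late array was brighter than each early one. The mean log2 signal was 3.26 higher at 7 days and 3.89 higher at 14 days than at 0 days (± 0.68 SE, n = 2 per group), which is 9.56-fold and 14.9-fold. The 3 day mean differed from that of 0 days by 0.00 on the log2 scale. Which 0 day array was used mattered for the size: the 14 day difference was 5.13 without 0 day replicate 1 and 2.66 without 0 day replicate 2, and the 7 day difference was 4.49 and 2.02. At 3 days the difference was 1.24 without 0 day replicate 1 and -1.24 without replicate 2, so no direction can be given there. The 7 and 14 day arrays overlapped.

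ANS1 read 369 and 209 at 0 days, 86.2 and 121 at 3 days, 977 and 1533 at 7 days, and 1311 and 1205 at 14 days. Its lowest arrays were those of 3 days, and its highest were those of 7 and 14 days. Relative to 0 days the log2 difference was -1.44 at 3 days, 2.14 at 7 days and 2.18 at 14 days (± 0.42 SE, n = 2 per group). No arrays overlapped between the frozen times and 0 days. The step between 3 and 7 days was the largest between successive times, with a log2 difference of 3.59 (12.0-fold). The means of 7 and 14 days differed by 0.04 on the log2 scale, less than the replicate gap of 0.65 at 7 days.

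YNR014W read 69.5 and 46.3 at 0 days, 70.8 and 38.4 at 3 days, 663 and 330 at 7 days, and 587 and 315 at 14 days. On the arrays of 0 and 3 days it ranked between the 35.8th and 49.7th percentile, a modest signal. It stood above all 4 mouse controls on all 8 arrays. On 3 day replicate 2 its deposited signal was 39.0, against 31.5 for the brightest control. Replicate 1 was brighter than replicate 2 at each time, by 0.58 to 1.01 on the log2 scale. The log2 signal was 3.04 higher at 7 days and 2.92 higher at 14 days than at 0 days (± 0.50 SE, n = 2 per group), which is 8.24-fold and 7.58-fold. At 3 days it differed by -0.12 and the arrays of 0 and 3 days overlapped. Both values for the late times stayed between 2.47 and 3.86 under all settings tried for this gene.

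**Figure D1:**
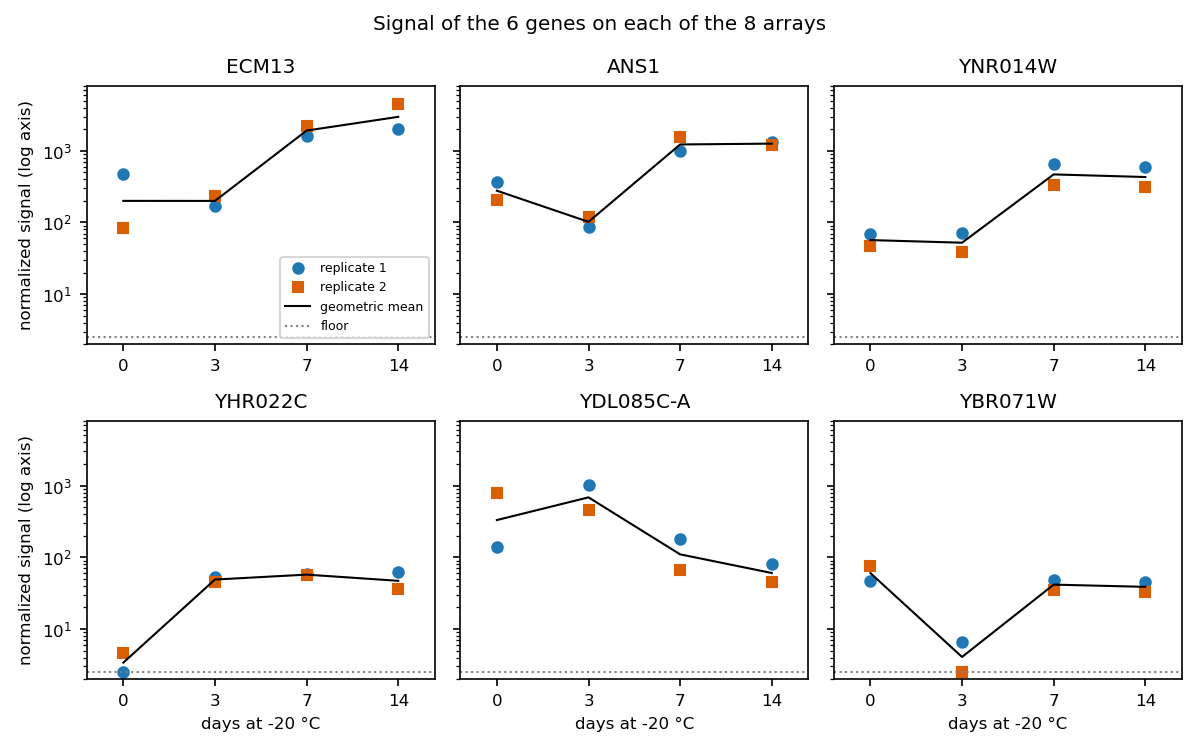
Normalised signal (log axis) of each gene on each array against days at -20 °C; circles are replicate 1, squares replicate 2, lines the geometric mean of 2 arrays, and the dotted line the floor of 2.52. ECM13, ANS1 and YNR014W are high at 7 and 14 days, YHR022C is low at 0 days only, YDL085C-A is lowest at 14 days, and YBR071W is low at 3 days only.

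YHR022C was low at 0 days and higher at all frozen times. It read 2.52 and 4.57 at 0 days, 52.2 and 45.8 at 3 days, 57.6 and 57.0 at 7 days, and 61.6 and 35.8 at 14 days. Both 0 day arrays lay below the other 6, and replicate 1 was at the floor. The log2 difference from 0 days was 3.85 at 3 days, 4.08 at 7 days and 3.79 at 14 days (± 0.72 SE, n = 2 per group). The means of the frozen times lay within 0.29 of one another on the log2 scale, although both 7 day arrays were above both 3 day arrays, by 0.23 on average.

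The 0 day signal of YHR022C was at background. Its deposited signals there were 2.28 and 3.13, against 16.9 and 6.87 for the brightest mouse control of the same arrays, and they ranked at the 4.18th and 9.40th percentile of all probe sets. On frozen arrays it ranked between the 34.2nd and 46.4th percentile, a modest signal. It stood above all 4 mouse controls on 5 of the 6 frozen arrays, and on 14 day replicate 2 its deposited signal was 44.4 against 65.9 for the brightest control. Its 13.8-fold to 16.9-fold differences from 0 days therefore rest on 2 background readings and on the floor. Over the 8 arrays its mean log2 signal was 4.69, against a filter at 4.16, so it passed that filter through the frozen arrays.

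YDL085C-A was the only one of the 6 with its lowest mean at 14 days. It read 138 and 791 at 0 days, 1030 and 455 at 3 days, 179 and 67.5 at 7 days, and 81.8 and 44.5 at 14 days. The 0 day duplicates lay 2.52 apart on the log2 scale, in the opposite sense to those of ECM13: replicate 2 was the bright one for YDL085C-A and the dim one for ECM13. Both 14 day arrays lay below both 0 day arrays, with a log2 difference of -2.45 ± 0.77 (SE, n = 2 per group), or 5.47-fold lower. The 7 day arrays overlapped with those of 0 days (-1.59), as did the 3 day arrays (1.05).

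The size of these differences turned on the 0 day arrays. Without 0 day replicate 1 the values for YDL085C-A were -0.21 at 3 days, -2.85 at 7 days and -3.71 at 14 days. Without 0 day replicate 2 they were 2.31, -0.33 and -1.19. Relative to 3 days, whose duplicates lay 1.18 apart, the log2 difference was -2.64 at 7 days and -3.50 at 14 days, with no overlap. Its pooled replicate SD of 1.14 was above that of 95.1% of genes. On 14 day replicate 2 its deposited signal of 55.6 was under the brightest mouse control (65.9), while the other 7 arrays were above theirs.

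YBR071W was low at 3 days alone. It read 47.1 and 76.7 at 0 days, 6.59 and 2.52 at 3 days, 48.9 and 35.3 at 7 days, and 45.6 and 32.8 at 14 days. Both 3 day arrays lay below the other 6, with 3 day replicate 2 at the floor. The log2 difference from 0 days was -3.88 at 3 days, -0.53 at 7 days and -0.64 at 14 days (± 0.78 SE, n = 2 per group). The 7 day arrays overlapped with those of 0 days, while both 14 day arrays lay just under both 0 day arrays. Between 3 and 7 days the log2 signal was 3.35 higher at the later time (10.2-fold).

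The 3 day signal of YBR071W was at background, and its other signals were modest. The deposited values at 3 days were 5.52 and 2.30, against 17.1 and 31.5 for the brightest mouse control, and ranked at the 12.0th and 4.26th percentile. On the other arrays it ranked between the 32.5th and 51.6th percentile, with 14 day replicate 2 (40.0) again under the brightest mouse control (65.9). The 14.8-fold lower signal at 3 days thus rests on 2 background readings. Its mean log2 signal over all arrays was 4.65, so it passed the filter through the arrays of the other times.

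**Figure D2:**
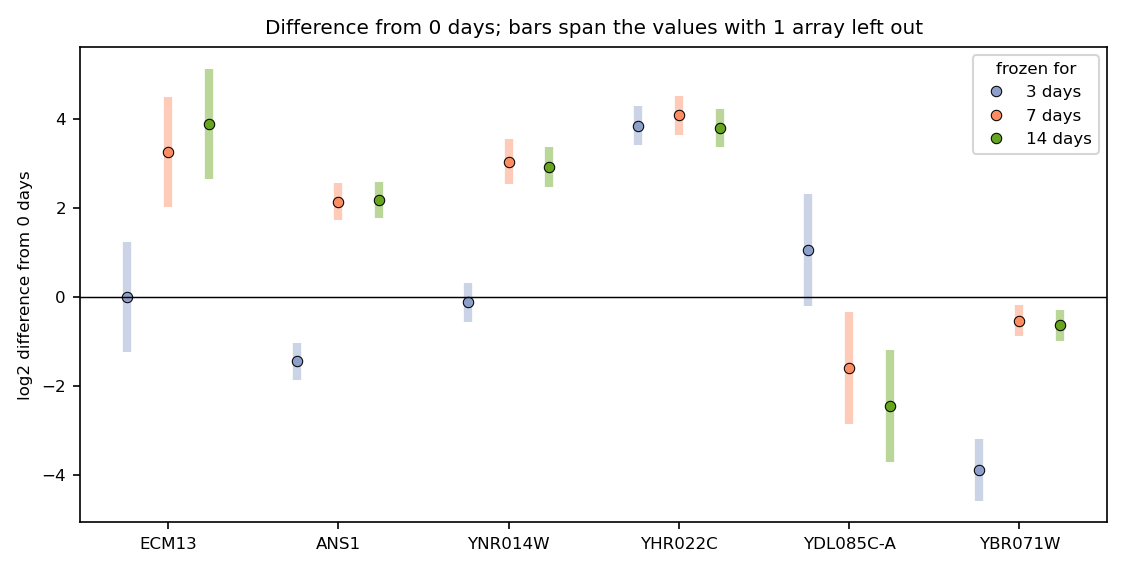
Log2 difference from 0 days at 3, 7 and 14 days for each gene (points); bars span the values with each of the 8 arrays left out in turn. The bars of ECM13 and YDL085C-A are the longest, reaching 2.66 to 5.13 and -3.71 to -1.19 at 14 days.

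Among all genes, the 6 stood near the top for the range of their 4 time means, which is what they were picked on. That range was 4.08 for YHR022C, 3.90 for ECM13, 3.88 for YBR071W, 3.62 for ANS1, 3.50 for YDL085C-A and 3.17 for YNR014W on the log2 scale. These ranked 4, 10, 12, 23, 26 and 52 of 5188, where the median range was 0.94 and the 95th percentile 2.24. Their replicate spread differed more widely. The pooled replicate SD was 0.41 for ANS1 and 0.42 for YHR022C, near the median of 0.44 over all genes, and 0.60 for YBR071W and 0.61 for YNR014W. It was 0.995 for ECM13 and 1.14 for YDL085C-A. The range was thus 9.77 replicate SDs for YHR022C and 8.84 for ANS1, but 3.91 for ECM13 and 3.06 for YDL085C-A. For YHR022C it rests on 0 day readings at background, with replicate 1 at the floor. The SE of a difference in the shared fit was 0.72 for YHR022C, above the 0.68 for ECM13, and 0.42 for ANS1. The SD ratios thus do not rank how firm the changes are. In mean signal YHR022C and YBR071W lay at the 5.05th and 4.41st percentile of genes, and ECM13 and ANS1 at the 83.3rd and 76.9th.

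**Figure D3:**
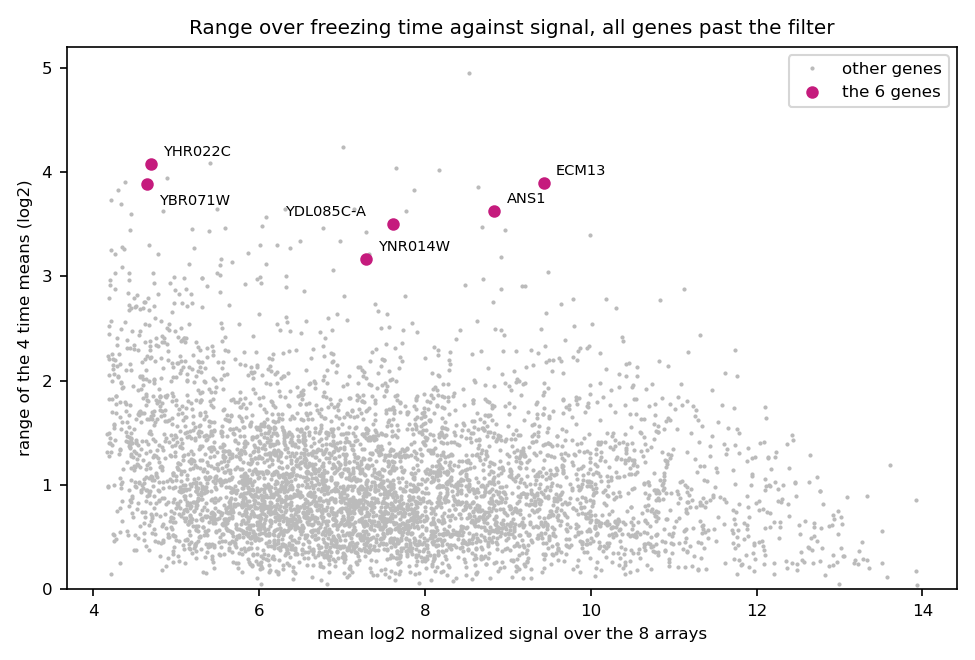
Range of the 4 time means (log2) against mean log2 normalised signal over 8 arrays, for all 5188 genes past the filter (grey) and the 6 genes (coloured). YHR022C and YBR071W lie at the dim end, with means of 4.69 and 4.65, and ECM13 and ANS1 are among the brighter genes with a wide range.

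The order of the arrays seen for these genes was found in many others. Of all genes, 683 (13.2%) had the 4 arrays of 7 and 14 days above the 4 of 0 and 3 days, among them ECM13, ANS1 and YNR014W. The gap between the dimmest late array and the brightest early array was 2.15 on the log2 scale for YNR014W, 1.79 for ECM13 and 1.41 for ANS1, which ranked 2, 3 and 11 of those 683. Both 0 day arrays lay below the other 6 for 365 genes (7.04%), of which YHR022C had the widest gap, at 2.97. Both 3 day arrays lay lowest for 299 genes (5.76%), where YBR071W had a gap of 2.32, ranked 2, and ANS1 one of 0.79, ranked 19. These arrangements were defined after the values were seen, and nothing is inferred from the members' place in them. Ribosomal RNA signal was also higher on every late array than on every early one, and its part in the late differences was not tested.

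The 3 profiles that were high late were the most alike of all pairs among the 6. Likeness was measured as the root mean square difference over the 8 arrays between log2 profiles, each less its own mean. It was 0.75 for ANS1 and YNR014W, 0.84 for ECM13 and ANS1, and 0.94 for ECM13 and YNR014W. All other pairs differed by 1.33 or more, and the widest difference was 3.46, between ECM13 and YDL085C-A. These pairs share all 8 arrays, so the differences describe these arrays only.

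Other genes came closer to each of the 6 than most of the 6 did to one another. Nearest to ECM13 were IDH2, a subunit of mitochondrial isocitrate dehydrogenase, at 0.55, the J-domain protein gene HLJ1 at 0.66, and ROQ1, which redirects a ubiquitin ligase to misfolded proteins, at 0.67. For scale, the profile of ECM13 itself departed from its own mean by 1.93 (root mean square). Nearest to ANS1 were IDH1, the partner subunit of IDH2, at 0.46, the splicing factor gene PRP45 at 0.49 and EAP1, an inhibitor of translation initiation, at 0.51. PRP45 was dim, at the 13.3rd percentile of mean signal, with its lowest readings at 3 days. Nearest to YNR014W were SDP1, a phosphatase of the cell integrity kinase, at 0.40, and the repressor gene ROX1 at 0.48. Between these 2, at 0.45, lay RDN18-1, a probe set for 18S ribosomal RNA that can read several copies of the gene. The profile of YNR014W thus ran close to that of this 1 probe set. Log2 differences from 0 days were 3.04 and 2.72 at 7 days for YNR014W and RDN18-1, and 2.92 and 2.11 at 14 days. The ribosomal RNA control probe sets as a group did not share its replicate order. Relative to the array median they were higher on replicate 2 at 3 days (7.75 and 11.3) and 7 days (17.1 and 22.7). YNR014W was higher on replicate 1 at each time, as that group was at 0 and 14 days.

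YHR022C ran closest to FUB1, which encodes a proteasome-binding protein, at 0.40, to the respiration factor gene RSF1 at 0.54 and to YEA4, a sugar nucleotide transporter gene, at 0.76. RSF1 was itself dim, at the 0.386th percentile of mean signal, with YEA4 at the 14.3rd and FUB1 at the 31.6th. All 3 read lowest on the 0 day arrays, and whether they stood above background there was not checked. YDL085C-A was nearest to RNR3, a large subunit of ribonucleotide reductase, at 0.72, to the asparagine synthetase gene ASN1 at 0.75 and to the vacuolar fusion gene MON1 at 0.76, the last at the 0.173rd percentile of mean signal. YBR071W was nearest to the kinase inhibitor gene CIP1 at 0.69, the phosphatase subunit gene CDC55 at 0.73 and the Golgi complex gene COG6 at 0.75, all 3 of them at or under the 5.63rd percentile of mean signal. How many of these nearest genes came back with 1 array left out varied: at least 2 of 3 for YNR014W, at least 1 for ANS1, and down to 0 for the other 4 genes. For ECM13, ROQ1 alone of the 3 came back without normalisation and with equal array medians, and IDH2 and HLJ1 did not.

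**Figure D4:**
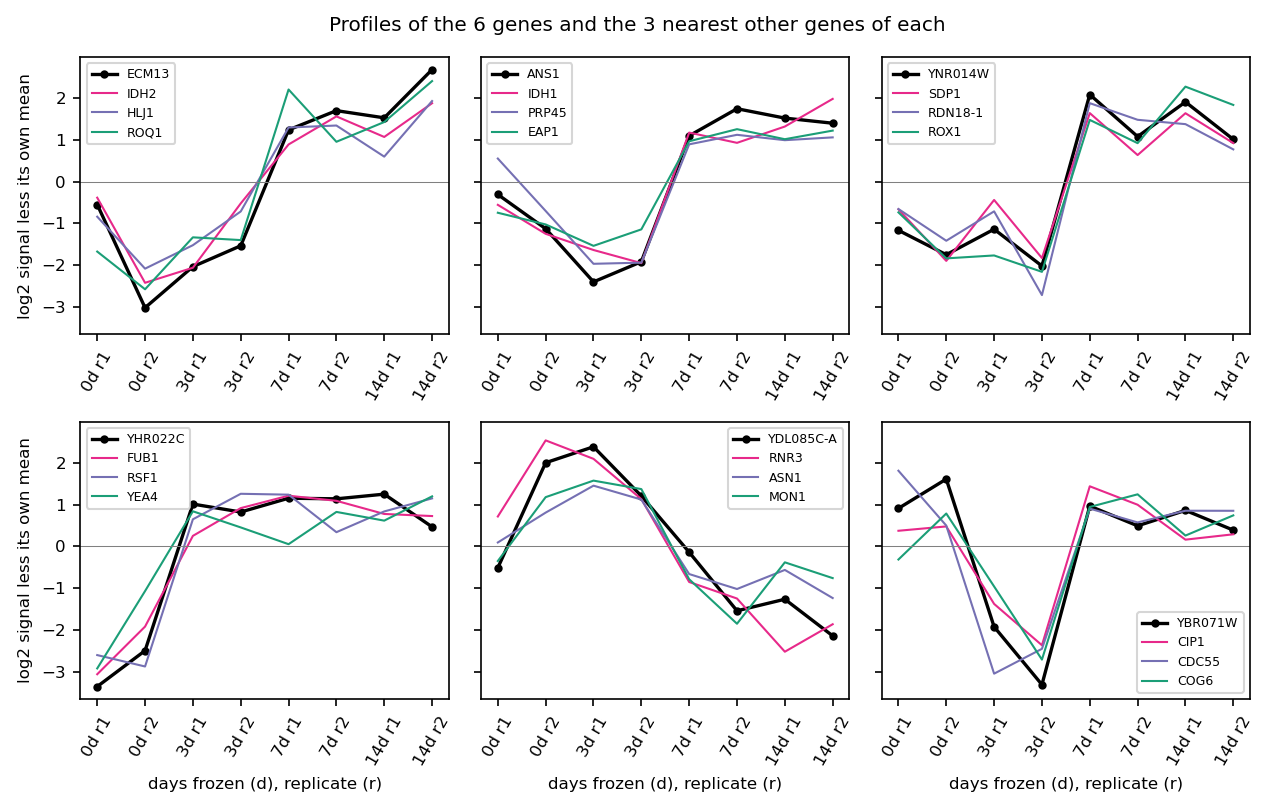
Log2 signal less its own mean on the 8 arrays (days frozen, d, and replicate, r) for each of the 6 genes (black) and the 3 other genes with the nearest profile (coloured). The nearest genes of YNR014W lie within 0.48 of it (root mean square), and those of YDL085C-A between 0.72 and 0.76.

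Relatives and chromosomal neighbours of the 6 were not used to pick them and were tested. Of 12 adjacent genes, 2 paralogs and AZF1, 10 passed the filter, 3 were below it and 2 had no probe set assigned to them alone. Across the 4 times, 0 of the 10 were called by limma's moderated F test (Benjamini-Hochberg adjusted p under 0.05). The same test called 134 of all genes (2.58%). Against 0 days, an unadjusted limma p under 0.05 was found for 1 of the 10 (10%) at 3 days, 4 (40%) at 7 days and 3 (30%) at 14 days. Of all genes it was found for 7.02%, 19% and 22.2%. AZF1, the factor that annotation links to ANS1 and YNR014W, was below the filter, with readings between the floor and 19.8 and duplicates far apart.

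The paralogs had values in the same direction as ECM13 and YNR014W, but their duplicates lay far apart. YJR115W, the paralog of ECM13, read 318 and 73.0 at 0 days, 270 and 155 at 3 days, 823 and 266 at 7 days, and 527 and 229 at 14 days. Replicate 1 was brighter at each time, and late and early arrays overlapped. Its log2 fold change at 14 days was 1.19 ± 0.74 (SE, n = 2 per group), at a limma adjusted p of 0.366, and 0.13 without 0 day replicate 2. YMR206W, the paralog of YNR014W, read 284 and 29.4 at 0 days, 99.6 and 57.1 at 3 days, 527 and 138 at 7 days, and 413 and 158 at 14 days. Its log2 fold change at 14 days was 1.48 ± 0.95 (SE, limma adjusted p = 0.382), and it was -0.15 without 0 day replicate 2. Neither paralog passed the test, and whether they differed from their partners was not tested.

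Of the neighbours, 4 are transcribed away from a member across a shared intergenic region. YHR127W, an unnamed gene beside ANS1, was 0.73 ± 0.36 (SE) higher on the log2 scale at 14 days than at 0 days, at a limma adjusted p of 0.252. PHO91, a vacuolar phosphate transporter gene beside YNR014W, differed by -0.26 (limma adjusted p = 0.718). NDE2, a mitochondrial NADH dehydrogenase gene beside YDL085C-A, differed by 1.92 ± 0.91 (SE, limma adjusted p = 0.241), against -2.45 for YDL085C-A, and read 689 and 252 at 14 days against 268 and 45.1 at 0 days. ALG14, an N-glycosylation gene beside YBR071W, differed by -1.40 ± 0.40 (SE, limma adjusted p = 0.0910), and read 181 and 259 at 14 days against 440 and 744 at 0 days. ALG14 read 344 and 319 at 3 days, where YBR071W was at background. None of these 4 values passed the threshold in this fit. Without 0 day replicate 1 ALG14 passed it (-1.78, limma adjusted p = 0.0481).

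The other 4 measured neighbours lie downstream of a member or end toward it. HSP26, a small heat shock protein gene downstream of YBR071W, read 647 and 485 at 14 days against 284 and 86.4 at 0 days. Its log2 fold change was 1.84 ± 0.52 (SE, limma adjusted p = 0.0910), 2.70 without 0 day replicate 1 (limma adjusted p = 0.0168) and 0.98 without replicate 2. At 3 days HSP26 read 161 and 155, within its 0 day range, while YBR071W was at the floor or near it. FUI1, a uridine permease gene beside ECM13, stood at -1.35 ± 0.42 (SE) on the log2 scale relative to 0 days, the opposite sign to ECM13, at a limma adjusted p of 0.103. SMM1, a tRNA modification gene beside YNR014W, differed by 0.08, and the unnamed YDL086W beside YDL085C-A by 0.47. The signs of SMM1 and YDL086W changed when single arrays were left out, and that of PHO91 without normalisation. ECM12, which overlaps YHR022C on the other strand, was below the filter. It read 12.5 and 12.0 at 0 days and between 2.52 and 7.03 on the frozen arrays.

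**Figure D5:**
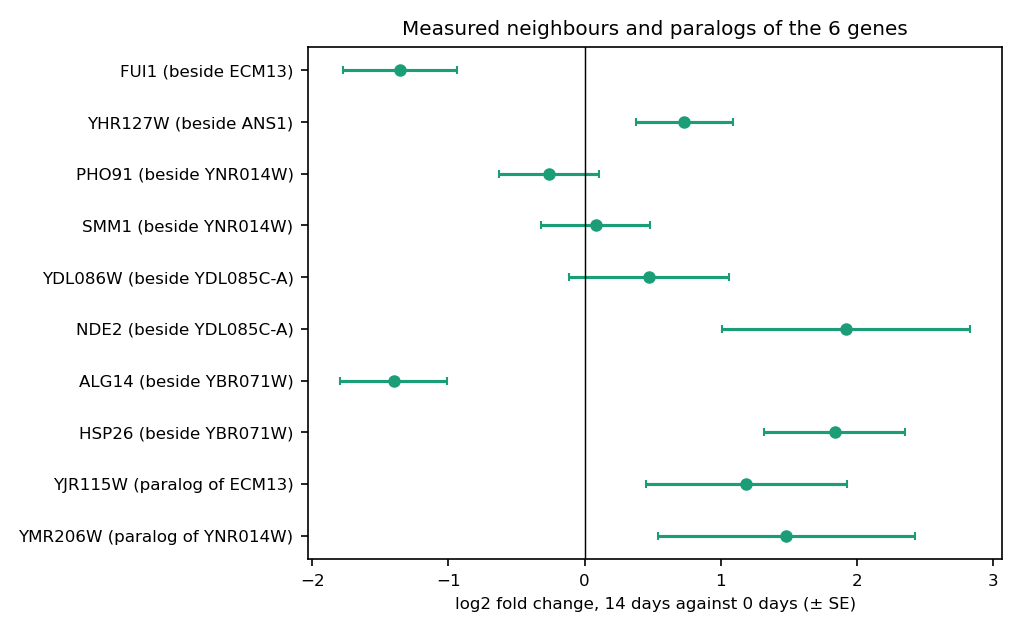
Log2 fold change at 14 days against 0 days (points, ± SE, n = 2 per group) of the 10 measured neighbours and paralogs, each with the gene it belongs to. Values run from -1.40 for ALG14 to 1.92 for NDE2, and 0 of the 10 passed limma's test.

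The wider class of genes with only systematic names was tested without the genes described here. Besides 4 of the genes described here, 343 unnamed genes passed the filter. These 4 were picked for large changes in these same data and left out, while the shares over all genes keep the 6. This can lower the share of unnamed genes called. In all, 77.3% of the 449 unnamed genes on the array passed it, against 91.7% of all 5656 genes, and the median mean log2 signal was 6.58 against 7.21. At 14 days against 0 days limma called 5 of them at an adjusted p under 0.05, of which 4 rose and 1 fell. That is 1.46% of 343, and of all genes 1.73% were called, 52 higher and 38 lower. An unadjusted p under 0.05 was found for 62 unnamed genes (18.1%), and for 22.2% of all genes. The median log2 fold change was 0.22 for unnamed genes and 0.11 for all genes. YMR085W rose by 3.29 ± 0.61 (SE) on the log2 scale, at a limma adjusted p of 0.0331, a size that rests on 0 day readings at background. YLR108C rose 6.11-fold (2.61 ± 0.39 SE, limma adjusted p = 0.0155) and YDR222W 4.70-fold (2.23 ± 0.39 SE, limma adjusted p = 0.0257). YCL002C fell by 1.74 on the log2 scale (limma adjusted p = 0.0493). The fifth, YHR033W, which rose too (2.06, limma adjusted p = 0.0381), is named after its value was seen.

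YMR085W read 87.6 and 102 at 14 days against 10.4 and 8.97 at 0 days. Its deposited signals at 0 days were 9.62 and 6.15, under the brightest mouse control of each array (16.9 and 6.87). YLR108C read 208 and 261 at 14 days and 117 and 115 at 7 days, against 42.8 and 33.9 at 0 days. YDR222W read 1091 and 1233 at 14 days and 934 and 542 at 7 days, against 285 and 214 at 0 days. The call of YCL002C ended under 12 of 17 alternatives, and the count of 5 moved with single arrays. Leaving out replicate 1 of 0 days gave 19, and leaving out its replicate 2 gave 2. The arrays of 3 days gave 2 and 3 when left out in turn, either array of 7 days gave 2, and either array of 14 days gave 0.

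At 7 days 0 of the 343 unnamed genes were called by limma, and 0.212% of all genes were called. An unadjusted p under 0.05 was found for 57 unnamed genes (16.6%), and for 985 of all 5188. The count of 0 moved with single arrays left out, as did the count over all genes. At 3 days limma called 0 of them and 0% of all genes, and 19 unnamed genes (5.54%) had an unadjusted p under 0.05, beside 7.02% of all genes.

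Further lists bear on single members. ECM13 shares its name with 20 other measured ECM genes, of which limma called 0 at 14 days, where 1.73% of all genes were called. An unadjusted p under 0.05 was found for 4 of the 20 (20%), near the 22.2% of all genes. Their median log2 fold change was -0.24, against 0.11 for all genes. Those with the smallest p were ECM3 (-1.24, limma adjusted p = 0.120) and ECM4, a glutathione transferase gene (1.50, limma adjusted p = 0.121). The count of 0 moved without 0 day replicate 1, as did the count over all genes. A fixed list of cell surface protein genes, most of them for GPI-anchored proteins, held 48 measured genes other than ANS1. Of these, limma called 1 higher and 0 lower at 14 days. That is 2.08%, near the 1.73% of all genes, and 13 (27.1%) had an unadjusted p under 0.05. The median log2 fold change was 0.04, against 0.11 for all genes. At 3 days against 0 days the median was -0.25, against 0.08 for all genes. Relative to 3 days it was 0.42 at 7 days and 0.41 at 14 days, against 0.08 and 0.02 for all genes. In these 2 comparisons limma called 3 of the 48 (6.25%) and 4 (8.33%), all of them higher. The share of all genes called there is not given here, so nothing is inferred from these counts. The 1 gene called at 14 days against 0 days was TIP1, a cold-induced mannoprotein gene. TIP1 read 6575 and 7680 at 14 days against 2403 and 1599 at 0 days (1.86 ± 0.28 SE on the log2 scale, limma adjusted p = 0.0155). The count of 1 moved with single arrays left out, as did the count over all genes. The value of TIP1 then ran from 1.56 to 2.15.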

How the data were processed

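The authors' deposited table held 9335 probe set intensity values per array on a linear scale, from 8 Affymetrix arrays. For software, scaling and genome build the sources used here give nothing, and no coordinates are reported. The 60 control probe sets were set aside. The arrays were quantile normalised, a floor was set at the pooled 5th percentile (2.52), and the values were put on a log2 scale. Probe sets with a mean under the 25th percentile (4.16, log2) were left out. A platform annotation gave 6504 probe sets 1 gene. The brightest probe set stood for each gene, which left 5188 genes. Adjacent genes came from the RefSeq table of assembly R64.

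All 8 arrays entered one limma 3.58.1 fit, each time having its own coefficient, in R 4.3.3 (4 residual and 6.89 prior degrees of freedom, intensity trend). The Benjamini-Hochberg adjustment of 2-sided p-values ran over all 5188 genes in each comparison, and genes under 0.05 were called. The members and lists were chosen with earlier results of these data known. Members were left out of each list but kept in the shares over all genes. Named besides the members are the 3 nearest profiles of each, their neighbours, paralogs and AZF1, the 3 largest called unnamed genes each way at 14 days, and called genes of the other lists or the 2 with the smallest p. The repeats of the nearest profiles and of the array orders under other settings were chosen after seeing the data. The script was tested on simulated data. Promoter and protein sequences were not analysed here.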

Additional observations from a re-analysis of the deposited data

How the results depend on the processing

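The 18 differences of the 6 genes from 0 days were recomputed 216 times: 186 values stayed within 1 pooled replicate SD, and 30 moved further. Many of the 186 could not move. Leaving out an array of a time not compared, or averaging the probe sets of genes with 1 probe set, returns the same difference. The lower floor could alter only YHR022C and YBR071W, the genes with a reading at the floor. These counts thus do not measure how stable the differences are. All differences at 7 and 14 days kept their sign under these settings. At 3 days the sign changed for ECM13 (-1.24 to 1.24), YNR014W (-0.56 to 0.32) and YDL085C-A (-0.21 to 2.31). Without normalisation ANS1 was at 3.16 at 7 days and 2.70 at 14 days, YNR014W at 3.86 and YHR022C at 4.65 at 7 days. Without a 0 day array YHR022C ran from 3.36 to 4.51, and without a 3 day array YBR071W was at -4.58 and -3.19 at 3 days. The count of 5 unnamed genes called at 14 days was 23 without normalisation, 2 without the intensity trend, 0 with only the compared groups, 8 with the replicate number as a block, and 0 to 19 with 1 array left out. At 7 days, where 0 were called, it was 90 without normalisation, 2 with equal array medians, 1 with the mean of a gene's probe sets, 1 with the replicate block, and 0 to 10 with 1 array left out. At 3 days it was 0 under each setting. The 0 ECM genes called became 1 without normalisation, and the count moved with single arrays left out. The 1 gene of the GPI list became 4 without normalisation, 0 with equal array medians, 0 without the trend and 0 with only the compared groups. That count also moved with single arrays left out. The 0 neighbours and paralogs called by the F test became 3 without normalisation (NDE2, HSP26 and YJR115W), 1 with the replicate block (NDE2), and 0 to 1 with 1 array left out. At 14 days PHO91 was at 0.35 without normalisation, and with 1 array left out SMM1 ran from -0.29 to 0.45 (-0.17 without 14 day replicate 1), YDL086W from -0.052 to 0.999 and YMR206W from -0.15 to 3.12. Without normalisation the median of all genes was 0.98 at 7 days and 0.59 at 14 days, against 0.17 and 0.11 here, and 1304 genes, not 683, had all late arrays above all early ones. The cause of these changes was not tested. Signals of YHR022C at 0 days and of YBR071W at 3 days lay at background, which limits the size of their differences. Deviations from the time means correlated between arrays of the same replicate number at 0.178 to 0.292 among the frozen times, but at -0.0884 to 0.0858 between 0 days and the frozen times. As not every pair was above 0.1, the numbers were not taken as pairs. With the replicate block NDE2 passed the threshold at 14 days (1.92, limma adjusted p = 0.0391).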
